A study of Mus musculus with 6 samples.

Results

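The genes described here make, sense, export and store cholesterol. They were chosen by function, with earlier results of these data known. The list names 28 genes, 18 of the synthesis pathway and 10 of its regulation, efflux and storage. Of the 28, 25 had a probe set that the array annotation assigns to a single gene, out of 19938 such genes, and 24 lay above the array-wide median on at least 3 of the 6 arrays and were tested, out of 11424 tested genes. Acat2, Nr1h2 and Soat1 had no such probe set and were not analysed here. Nr1h3 was measured but did not lie above the median on at least 3 arrays and was not tested.

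Whole-transcript array profiles were compared between 3 cultures of mouse N2A cells given a non-targeting control vector and 3 given a Pax6 knockdown construct. N2A (neuro 2A) is an established mouse neuroblastoma line. Both groups were transiently transfected with 1.5 µg of a short hairpin RNA vector, and total RNA was taken 3 days later, so no culture was a stable clone. The hairpins were driven by a U6 promoter on a plasmid that also carried an eGFP cassette, and the share of cells that took it up was not analysed here. The question is how transcript levels respond to less Pax6, a transcription factor of brain and eye development. The cultures are labelled as biological replicates, and p-values measure the spread between these cultures.

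Cholesterol is built from acetyl-CoA. A first arm makes mevalonate and converts it to farnesyl diphosphate, and a second arm joins farnesyl units into squalene, closes the rings to lanosterol and trims lanosterol to cholesterol. The transcription factors SREBP1 and SREBP2, which the proteins SCAP and INSIG hold in the endoplasmic reticulum while sterol is plentiful, drive most genes of both arms when sterol is scarce. The liver X receptors sense oxidised sterols and switch on the efflux pumps ABCA1 and ABCG1. How heavily N2A cells use this pathway was not measured here.

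Pax6 itself, the targeted gene, read 8.79, 8.82 and 8.81 on the control arrays and 8.48, 8.30 and 8.50 on the knockdown arrays (log2 values). It lay lower on every knockdown array, at a log2 difference of -0.38 (SE 0.071, adjusted p = 0.0383 by limma), a call lost on leaving out control replicate 1 (0.120), 2 (0.180) or 3 (0.141) or knockdown replicate 3 (0.126) and with a variance filter (0.231). Of 7 measured sympathetic neuroblastoma markers all 7 lay above the array-wide median, and their summed linear signal was 31189 to 32207 in control and 28961 to 29792 in knockdown arrays. Among these, Dbh (-1.08) and Chga (-0.30) fell by limma at 10% FDR, and the part of that in the cholesterol gene values was not tested. None of the 4 macrophage markers lay above the median, and neither did Gfap and S100b of the glial, Dcn, Lum and Pdgfra of the fibroblast or Cdh5, Kdr and Tek of the endothelial list, while Sox10, Col1a1, Col1a2 and Pecam1 did. The summed signals of these lists were 402 to 433 and 403 to 449 (glial), 926 to 1021 and 866 to 1026 (fibroblast), 390 to 398 and 332 to 391 (macrophage), and 537 to 576 and 574 to 651 (endothelial) in control and knockdown arrays.

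The falls were few and lay at some late synthesis genes and an efflux gene. The last-step gene Dhcr7 (log2 fold change -0.02) and the partner pump gene Abcg1 (0.01) did not pass 10% FDR. Sc5d fell by 24.1% and Ebp fell by 17.2%, both encoding enzymes that act in sequence near the end of cholesterol synthesis, and the efflux pump gene Abca1 fell by 17.7%. Of the 24 tested genes, 3 were lower, 0 higher and 21 did not pass 10% FDR by limma, against 6.67% of all tested genes called in either direction. An unadjusted p under 0.05 was found for 5 of 24 (20.8%), against 18.8% of all tested genes. The share lower, 12.5%, compares with 3.88% of all tested genes, and 2.79% of all tested genes were higher. The genes were chosen with earlier results known, so this comparison is a description and not a test. The median log2 fold change was -0.02 over the 24 genes and 0.02 over all tested genes. None of the 3 calls was kept with no low-value filter, with a variance filter, or on leaving out control replicate 1, control replicate 2 or knockdown replicate 3, and 1 was kept without control replicate 3. In bulk RNA, fewer cells making a transcript and less of it per cell cannot be told apart.

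**Figure D1:**
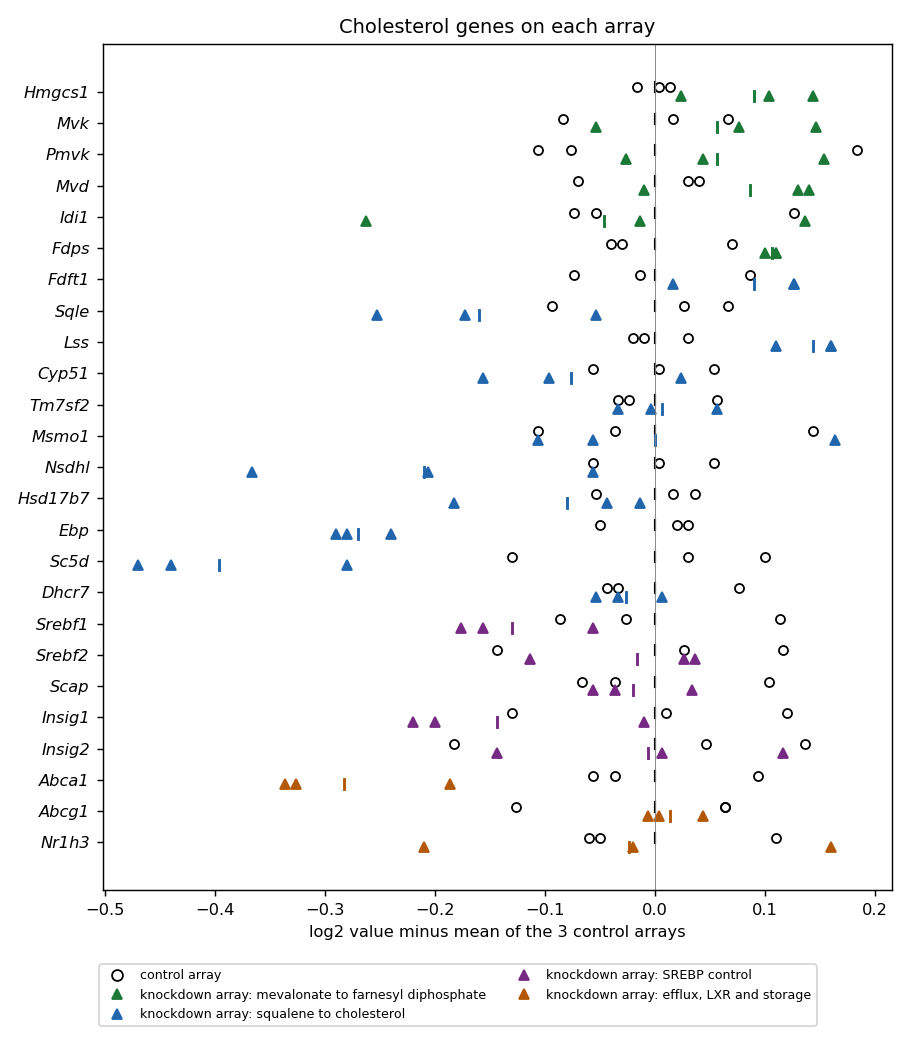
Deviation of each array's log2 value from the control mean (horizontal axis) for the 25 measured cholesterol genes in pathway order (vertical axis); open circles are control arrays, filled triangles Pax6 knockdown arrays coloured by role, and short vertical ticks group means. The knockdown triangles of Ebp, Sc5d and Abca1 lie wholly to the left of the control circles and those of Lss wholly to the right, while most other genes overlap.

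**Figure D2:**
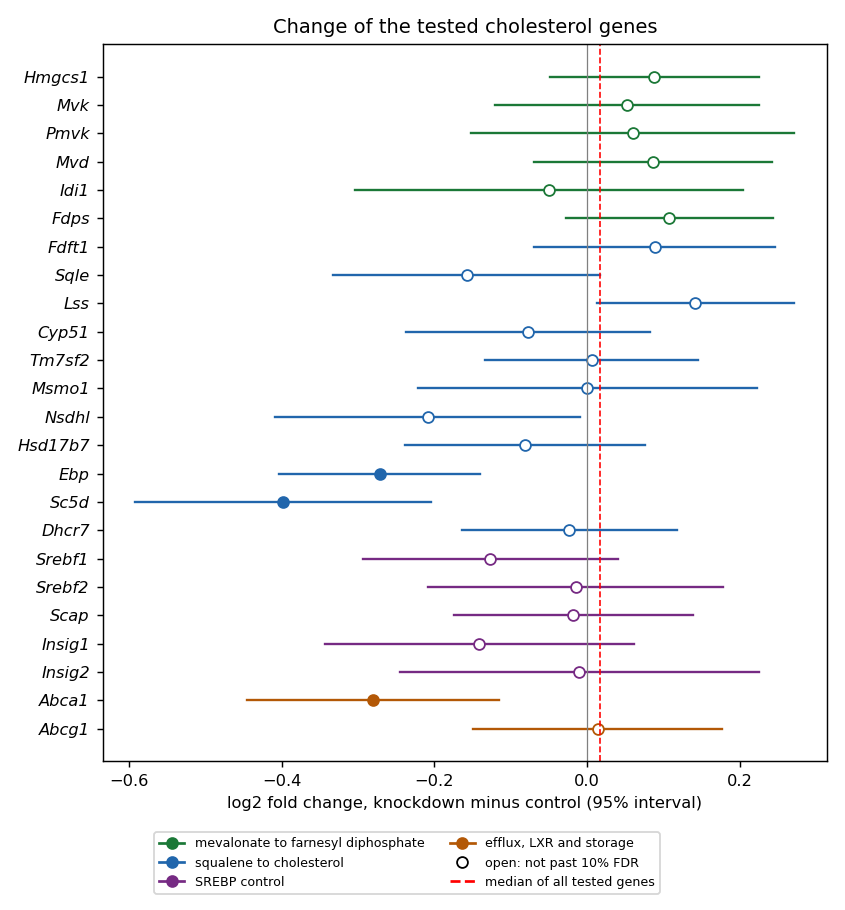
Log2 fold change, knockdown minus control, with its 95% interval from limma (horizontal axis) for the 24 tested cholesterol genes in pathway order (vertical axis); filled points passed 10% FDR, open points did not, and the dashed line is the median of all tested genes, 0.02. The 3 filled points are Sc5d (-0.40), Ebp (-0.27) and Abca1 (-0.28).

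In the first arm, 6 of 7 genes were measured and 0 of 6 passed, against 6.67% of all tested genes. Log2 fold changes ran from -0.05 to 0.11, with a median of 0.07. Hmgcs1, which encodes the cytosolic enzyme that condenses acetyl units into HMG-CoA, read 12.20, 12.23 and 12.22 in control and 12.32, 12.24 and 12.36 in knockdown arrays. Its groups did not overlap, although the second knockdown array lay only 0.01 above its control of the same number. The log2 fold change was 0.09 (SE 0.059, 95% interval -0.05 to 0.23, limma adjusted p = 0.488).

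Fdps, which encodes the synthase that makes farnesyl diphosphate at the end of this arm, read 12.74, 12.64 and 12.63 in control and 12.78, 12.77 and 12.78 in knockdown arrays. All of the knockdown values were higher, by a log2 difference of 0.11 (SE 0.059, adjusted p = 0.378), and they lay closer together than the control values. Non-overlap of this kind was common: 25.6% of all tested genes showed it in either direction, as 13.9% of all tested genes lay wholly higher in the knockdown and 11.7% wholly lower, against 12.5% and 16.7% of the 24 cholesterol genes.

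The kinases and the decarboxylase of mevalonate gave small differences within the spread of the arrays. Log2 fold changes were 0.05 (SE 0.075) for the mevalonate kinase gene Mvk, 0.06 (SE 0.092) for the phosphomevalonate kinase gene Pmvk and 0.09 (SE 0.067) for the decarboxylase gene Mvd, with adjusted p from 0.569 to 0.806 by limma. Idi1, which encodes the isomerase that readies isoprene units for coupling, read 11.54, 11.34 and 11.36 in control and 11.55, 11.15 and 11.40 in knockdown arrays. Both its groups were highest in replicate 1, and the log2 fold change of -0.05 (SE 0.11, adjusted p = 0.872) changed sign when control replicate 1 or knockdown replicate 2 was left out (0.02 and 0.06) and with array weights (0.01). A second Idi1 probe set gave a difference of -0.04. Idi1 and Fdft1 each had 2 probe sets with nearly the same values, and how far they share probes with near-identical copies was not tested.

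In the second arm all 11 genes were tested, 2 fell (18.2%, against 3.88% of all tested genes), 0 rose (against 2.79%) and 9 did not pass, with a median log2 fold change of -0.08. Fdft1, the squalene synthase gene at its entry, read 13.13, 13.03 and 12.97 in control and 13.17, 13.06 and 13.17 in knockdown arrays. These values overlapped (log2 fold change 0.09, SE 0.068, adjusted p = 0.564), and its second probe set gave 0.05. Sqle, whose product squalene epoxidase opens the path to sterols, read 12.52, 12.48 and 12.36 in control and 12.40, 12.20 and 12.28 in knockdown arrays. Each knockdown array lay below the control of its number, by 0.12, 0.28 and 0.08 on the log2 scale, but the groups overlapped and the fold change of -0.16 did not pass (SE 0.076, adjusted p = 0.309).

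Lss, the lanosterol synthase gene that closes the sterol rings, read 12.43, 12.48 and 12.44 in control and 12.61, 12.56 and 12.61 in knockdown arrays. It was the only second-arm gene with every knockdown array above every control array. The log2 fold change was 0.14 (SE 0.056, 95% interval 0.01 to 0.27), which did not pass 10% FDR (limma adjusted p = 0.220). The gene passed with array weights (adjusted p = 0.0715) and with an intensity trend in the prior (0.0782), over a range of 0.0715 to 0.478 in its 14 alternatives.

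Cyp51 and Msmo1, whose products strip methyl groups from lanosterol, and the reductase gene Tm7sf2 gave small log2 fold changes. Cyp51, the lanosterol demethylase gene, had a log2 fold change of -0.08 (SE 0.069), and the sterol reductase gene Tm7sf2 one of 0.01 (SE 0.060). Msmo1, which encodes the methylsterol oxidase, read 12.99, 12.81 and 12.74 in control and 13.01, 12.79 and 12.74 in knockdown arrays. Each knockdown value of Msmo1 was within 0.02 of the control of the same number, so the groups matched in order as well as in mean (12.85 in both).

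Nsdhl, the dehydrogenase gene of the same demethylation complex, read 11.98, 11.93 and 11.87 in control and 11.87, 11.56 and 11.72 in knockdown arrays. The groups touch at this rounding, and each knockdown array lay below its control of the same number, by 0.10, 0.37 and 0.16. With the replicate number as a block the log2 fold change of -0.21 passed 10% FDR by limma (adjusted p = 0.0949), and without it the gene did not pass (SE 0.086, adjusted p = 0.246). The block brought the count of lower cholesterol genes to 4 of 24, or 16.7%, against 8.91% of all tested genes, with 0 higher against 8.96%. Hsd17b7, whose product reduces the ketone that NSDHL leaves, differed by -0.08 on the log2 scale (SE 0.068, adjusted p = 0.602).

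Ebp encodes the isomerase that shifts the ring double bond of the late sterols. Its log2 values were 10.28, 10.27 and 10.20 in control and 9.96, 10.01 and 9.97 in knockdown arrays, or 10.25 ± 0.042 and 9.98 ± 0.025 (SD, n = 3). The knockdown arrays formed a tight group below all control arrays, and Ebp fell by 0.27 on the log2 scale (SE 0.057, 95% interval -0.40 to -0.14, adjusted p = 0.0517 by limma). Its call depended on control replicates 1 (adjusted p = 0.153 without it), 2 (0.214) and 3 (0.143) and on knockdown replicate 3 (0.194), while the fold change with any 1 array left out was between -0.30 and -0.26. The variance filter (0.491) and testing without a low-value filter (0.135) also ended it.

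Sc5d encodes the desaturase that acts directly after EBP. It read 11.71, 11.64 and 11.48 in control and 11.33, 11.14 and 11.17 in knockdown arrays, or 11.61 ± 0.12 and 11.21 ± 0.10 (SD, n = 3). Within each number the knockdown was lower by 0.38, 0.50 and 0.31 on the log2 scale, the widest differences of any of the 24 genes in replicates 1 and 2. Sc5d fell by 0.40 on the log2 scale (SE 0.084, 95% interval -0.59 to -0.20, adjusted p = 0.0521 by limma). Leaving out control replicate 1 (adjusted p = 0.161), control replicate 2 (0.205) or knockdown replicate 3 (0.203) lost the call, as did no low-value filter (0.116) and the variance filter (0.209).

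Dhcr7, which encodes the reductase that completes cholesterol after SC5D, read 12.07, 12.19 and 12.08 in control and 12.08, 12.12 and 12.06 in knockdown arrays. Its values overlapped fully, with a log2 fold change of -0.02 (SE 0.061, 95% interval -0.16 to 0.12, adjusted p = 0.895). Whether its response differed from those of Ebp and Sc5d was not tested.

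Promoters of some of the genes named above are shown. At known target promoters SREBP2 acts together with the factor NF-Y, which binds the CCAAT box. Binding of either factor was not measured here. The RefSeq promoter table (GRCm38.p6) held 24 of the 28 genes, and the 250 bases before each start site were searched on both strands for ATTGG (the inverted CCAAT box), GGGCGG (GC box), CACGTG (E-box), TCACNCCAC (a sterol element) and the LXR DR4 element. None of these contains another. The sequences below, read 5′ to 3′ on the gene's strand, leave out bases inside the annotated gene, and capitals mark inverted CCAAT boxes on either strand, sterol elements and E-boxes. They come from Hmgcs1 (chr13:119690101-119690350, plus strand), Lss (chr10:76531355-76531564, plus strand), Ebp (chrX:8193513-8193762, minus strand), Sc5d (chr9:42264301-42264550, minus strand) and Abca1 (chr4:53159989-53160145, minus strand).
Hmgcs1: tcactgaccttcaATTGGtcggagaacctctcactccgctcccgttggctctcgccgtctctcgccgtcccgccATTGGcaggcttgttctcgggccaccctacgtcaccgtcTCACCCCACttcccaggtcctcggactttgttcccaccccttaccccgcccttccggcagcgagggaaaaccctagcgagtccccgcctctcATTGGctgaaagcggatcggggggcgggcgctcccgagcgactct
Lss: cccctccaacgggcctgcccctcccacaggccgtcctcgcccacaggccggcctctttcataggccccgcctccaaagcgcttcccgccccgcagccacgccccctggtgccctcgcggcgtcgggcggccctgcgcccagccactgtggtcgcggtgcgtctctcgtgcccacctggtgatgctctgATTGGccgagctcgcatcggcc
Ebp: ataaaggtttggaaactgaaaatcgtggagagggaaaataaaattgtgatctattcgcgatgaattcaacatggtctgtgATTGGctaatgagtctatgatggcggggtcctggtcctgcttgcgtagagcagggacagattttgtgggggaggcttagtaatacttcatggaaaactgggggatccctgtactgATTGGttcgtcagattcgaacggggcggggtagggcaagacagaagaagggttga
Sc5d: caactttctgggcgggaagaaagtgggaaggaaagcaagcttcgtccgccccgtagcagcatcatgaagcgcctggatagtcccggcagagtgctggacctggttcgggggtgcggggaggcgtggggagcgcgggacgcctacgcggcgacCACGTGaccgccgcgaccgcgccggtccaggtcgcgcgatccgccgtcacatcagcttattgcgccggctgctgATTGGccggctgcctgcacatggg
Abca1: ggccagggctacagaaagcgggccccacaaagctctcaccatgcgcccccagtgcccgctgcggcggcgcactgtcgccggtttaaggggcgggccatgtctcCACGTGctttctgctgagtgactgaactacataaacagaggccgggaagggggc
Hmgcs1, with no call, holds 3 inverted CCAAT boxes and the only sterol element, and of the 3 genes that fell Ebp holds 2 CCAAT boxes, Sc5d 1 and Abca1 0.

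The inverted CCAAT box was found before 19 of the 24 genes (79.2%), among them 14 of the 15 synthesis genes in the table, against 40.4% of the 9180 tested genes in it. By window it was in 20 of 33 (60.6%), against 33.8% of all 32851, a background that, unlike the one by gene, includes untested genes. The sterol element was in 1 of 24 (4.17%) against 1.23% of tested genes, the E-box in 6 of 24 against 9.97%, and the GC box in 20 (83.3%) against 65.3%. The LXR DR4 element, searched only as 1 exact spelling of its 2 repeats, was in 0 of 24 genes. It was also in 0 of the 9180 tested genes, and in 0.0152% of all windows. So strict a search cannot tell whether a gene lacks an LXR element. A match is a run of letters and not a measured site, and the CCAAT box was found before 2 of the 3 genes that fell and before genes without a call.

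None of the 5 SREBP control genes passed, against 6.67% of all tested genes. All 5 fold changes were below 0, as were 44.5% over all tested genes (median -0.02, against 0.02 for all tested genes). Srebf1, which encodes SREBP1, the isoform that favours fatty acid genes, read 11.20, 11.40 and 11.26 in control and 11.11, 11.23 and 11.13 in knockdown arrays. Every knockdown array was below its control of the same number, by 0.09, 0.17 and 0.12, and the groups overlapped (log2 fold change -0.13, SE 0.073, adjusted p = 0.407). Srebf2, which encodes SREBP2, the main driver of cholesterol synthesis genes, read 12.45, 12.71 and 12.62 in control and 12.48, 12.62 and 12.63 in knockdown arrays. These overlap (log2 fold change -0.02, SE 0.083, 95% interval -0.21 to 0.18, adjusted p = 0.953). The array reads transcript, and SREBP activity is set largely by cleavage of the protein, which was not measured.

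Insig1 encodes the retention protein whose gene is itself an SREBP target. It read 12.75, 12.64 and 12.50 in control and 12.62, 12.41 and 12.43 in knockdown arrays, lower within each number by 0.13, 0.23 and 0.06. Its groups overlapped, because knockdown replicate 1 lay above control replicate 3, and the log2 fold change of -0.14 did not pass (SE 0.088, adjusted p = 0.451). The second retention protein gene Insig2 (-0.01, SE 0.10) and the escort protein gene Scap (-0.02, SE 0.068) gave values near 0, and those of Insig2, Scap and Srebf2 changed sign in some alternatives.

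On the efflux side Abca1, which encodes the pump that loads cholesterol onto apolipoproteins, read 9.18, 9.20 and 9.33 in control and 9.05, 8.91 and 8.90 in knockdown arrays, or 9.24 ± 0.083 and 8.95 ± 0.082 (SD, n = 3). All knockdown values were below all control values, and within numbers the difference was -0.13, -0.28 and -0.43. Abca1 fell by 0.28 on the log2 scale (SE 0.072, 95% interval -0.45 to -0.12, adjusted p = 0.0836 by limma). The call was lost on leaving out control replicate 1 (adjusted p = 0.163), 2 (0.236) or 3 (0.255) or knockdown replicate 2 (0.102) or 3 (0.278), with no low-value filter (0.189), with a 25th percentile filter (0.138) and with the variance filter (0.484).

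Abcg1, the gene of the partner pump that passes cholesterol to lipoprotein particles, read 8.09, 7.90 and 8.09 in control and 8.07, 8.02 and 8.03 in knockdown arrays. Its values overlapped (log2 fold change 0.01, SE 0.071, 95% interval -0.15 to 0.18, adjusted p = 0.948), and whether it differed from Abca1 was not tested. Nr1h3, which encodes a liver X receptor, read 7.46, 7.47 and 7.63 in control and 7.5, 7.31 and 7.68 in knockdown arrays. These values overlap and lie near the array-wide median.

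For the 21 genes without a call, the 95% intervals give a range for the difference in array signal, each gene taken by itself. The intervals were not adjusted for the number of genes tested, whereas the calls were. They therefore do not bound how large a change the calls could have missed. The interval end farthest from no change corresponded to 1.18-fold at the median. It was smallest for Tm7sf2 (1.11-fold) and largest for Nsdhl (1.33-fold), followed by Insig1 (1.27-fold) and Sqle (1.26-fold). This end depends on the estimate as well as on the width of the interval, so the order is not one of precision.

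Arrays differed in level within a group. Of the 17 tested synthesis genes, 12 were highest on control replicate 1 and 8 on knockdown replicate 1, and all of those 8 were among the 12. Knockdown replicate 2 was the lowest knockdown array for 13 of the 17. Over all tested genes replicate 1 was the highest for 51.3% in control and 55.8% in knockdown, and knockdown replicate 2 was the lowest for 64.7%. The median within-group SD of the synthesis genes was 0.073 on the log2 scale, and 0.049 was the spread left once numbers were matched, against 0.097 and 0.068 over all tested genes.

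The arms were also set out array by array. Relative to the control mean, the median first-arm gene stood at 0.07, -0.05 and -0.02 on the control arrays and 0.10, 0.00 and 0.12 on the knockdown arrays. The median second-arm gene stood at 0.05, 0.02 and -0.05 and at -0.03, -0.16 and -0.09. Of the 6 first-arm genes 4 were higher in all 3 pairs and 0 lower, and of the 11 second-arm genes 2 were higher and 5 lower in all 3 pairs. Over all tested genes 28.4% were higher and 21.3% lower in all 3 pairs. The arms were not tested against each other.

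**Figure D3:**
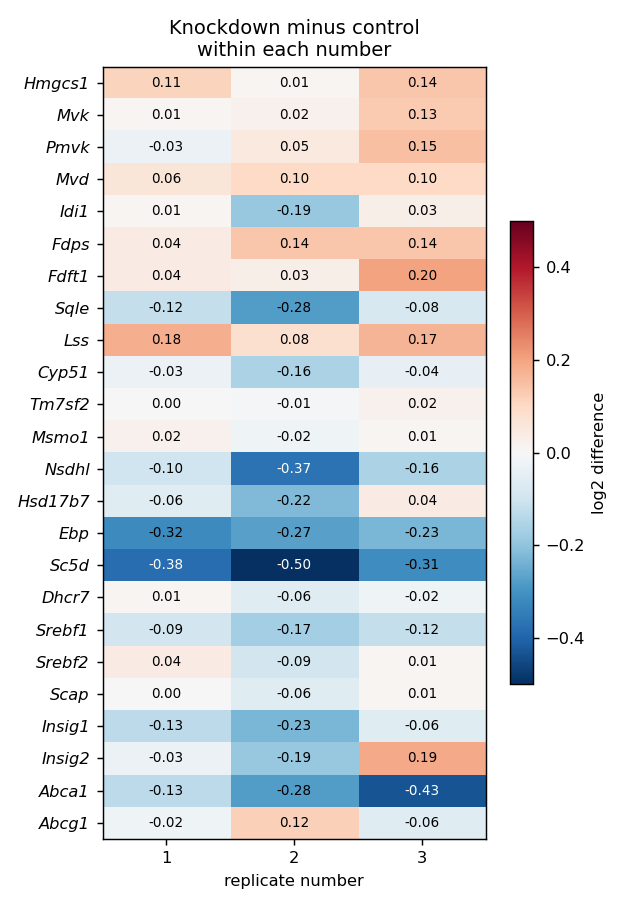
Log2 difference, knockdown minus control array of the same replicate number (columns 1 to 3), for the 24 tested cholesterol genes in pathway order (rows); red is higher and blue lower in the knockdown, and each cell prints its value. Ebp, Sc5d, Nsdhl, Sqle and Abca1 are blue in all 3 columns, while Lss, Fdps, Mvd and Fdft1 are red in all 3.

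Other sterol genes were counted from lists chosen by function, also with earlier results of these data known. Of 7 tested genes of SREBP cleavage and sterol-linked degradation 1 fell, 0 rose and 6 did not pass, against 3.88% of all tested genes lower and 2.79% higher. Blocking on the replicate number gave 2 lower and 0 higher, against 8.91% and 8.96%. Erlin2, whose product binds cholesterol in the endoplasmic reticulum and restrains SREBP release, read 11.71, 11.62 and 11.52 in control and 11.28, 11.07 and 11.13 in knockdown arrays. All knockdown values were lower, on average (log2 fold change -0.45, SE 0.079, adjusted p = 0.0321 by limma), and the call was lost on leaving out control replicate 1 (0.116), control replicate 2 (0.155) or knockdown replicate 3 (0.152) and with the variance filter (0.115).

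Of 13 tested fatty acid genes driven by SREBP1, 1 rose (7.69%, against 2.79% of all tested genes) and 0 fell (against 3.88%). The other 12 did not pass, and the median log2 fold change of the list was 0.04. With the replicate block 2 were higher and 0 lower, against 8.96% and 8.91% of all tested genes. The riser was Acss2, the acetyl-CoA synthetase gene, at 11.75, 11.98 and 11.98 in control and 12.14, 12.23 and 12.24 in knockdown arrays. Its groups did not overlap (log2 fold change 0.30, SE 0.080, adjusted p = 0.0944), but leaving out any 1 array lost the call. The adjusted p rose to 0.198, 0.221 or 0.184 on dropping control replicate 1, 2 or 3, and to 0.112, 0.108 or 0.292 on dropping knockdown replicate 1, 2 or 3. It was 0.114 with array median centring, 0.204 when no gene was filtered, 0.149 with the 25th percentile filter and 0.447 with the variance filter.

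Lipoprotein receptor and sterol carrier genes gave 2 falls (15.4%, against 3.88% of all tested genes) and 0 rises (against 2.79%) among 13. The replicate block gave 4 lower and 1 higher, against 8.91% and 8.96% of all tested genes. Lrp1, an endocytic receptor gene, read 9.42, 9.61 and 9.79 in control and 9.26, 9.26 and 9.24 in knockdown arrays. Its control arrays were spread far more widely than its knockdown arrays, and the log2 fold change was -0.35 (SE 0.093, adjusted p = 0.0912). Dropping control replicate 2 (adjusted p = 0.285) or 3 (0.235) or knockdown replicate 1 (0.146) or 3 (0.274) lost the call, as did filtering no gene (0.193), the 25th percentile filter (0.140) and the variance filter (0.327).

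Mylip encodes a ligase that marks lipoprotein receptors for degradation and, like Abca1, is a known liver X receptor target. Abcg1, another such target, did not pass (log2 fold change 0.01, limma adjusted p = 0.948), and the targets were not tested as a set. Mylip read 9.72, 9.78 and 9.71 in control and 9.56, 9.34 and 9.40 in knockdown arrays, wholly lower (log2 fold change -0.30, SE 0.072, adjusted p = 0.0689). Dropping control replicate 1 (adjusted p = 0.172), 2 (0.259) or 3 (0.190) or knockdown replicate 3 (0.238) lost the call, as did filtering no gene (0.158), the 25th percentile filter (0.114) and the variance filter (0.432).

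The non-sterol isoprenoid branch, which uses farnesyl units for protein prenylation, dolichol and ubiquinone, gave 0 calls among 12 genes, against 6.67% of all tested genes. Its lowest p values were at the farnesyltransferase subunit gene Fntb (log2 fold change 0.28, SE 0.087, adjusted p = 0.132) and the prenyl protease gene Zmpste24 (-0.28, SE 0.11, adjusted p = 0.244), both past 10% FDR with the replicate block (0.0344 and 0.0472). Of 6 sterol turnover genes only 2 were tested and 0 passed: Cyp46a1, the neuronal cholesterol hydroxylase gene, at -0.11 (SE 0.088, adjusted p = 0.578), and Hsd3b7 at 0.23 (SE 0.090, adjusted p = 0.219; 0.0545 with the block).

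**Figure D4:**
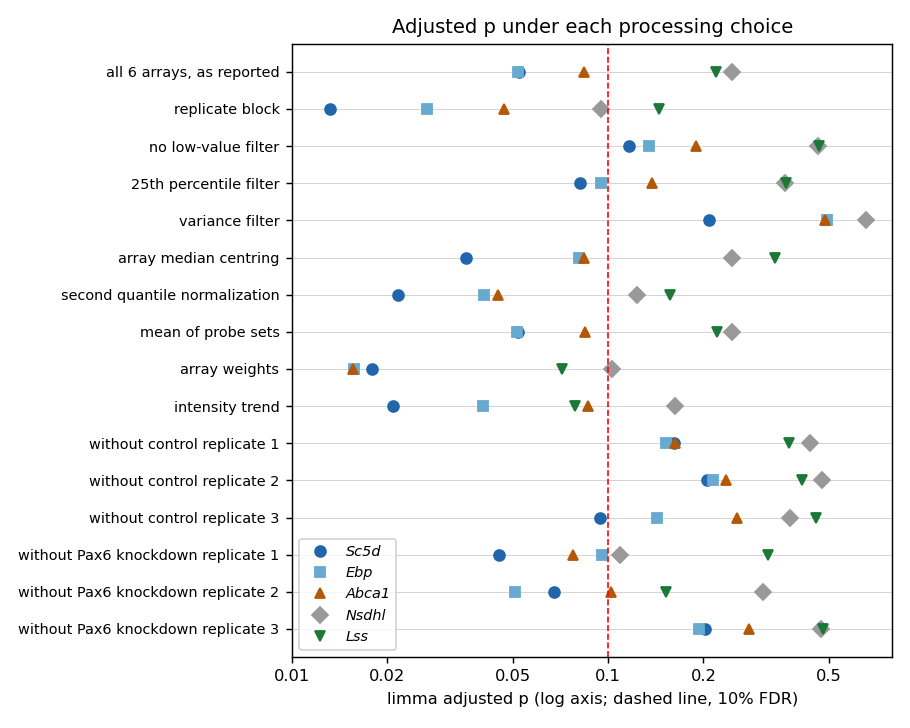
Limma adjusted p (horizontal log axis) of Sc5d, Ebp, Abca1, Nsdhl and Lss under the reported fit and each of 15 alternatives, 14 for Lss, which the variance filter removed (vertical axis); the dashed line is 10% FDR, and points to its left passed. Sc5d lies between 0.0132 and 0.209, and all 5 genes lie to the right of the line without control replicate 1, control replicate 2 or knockdown replicate 3.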

How the data were processed

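The authors deposited log2 values per probe set after RMA background correction and quantile normalization, made with the R packages oligo and limma (versions: not given in the sources used here). Such scaling hides a change in total RNA and shrinks differences at dim probe sets. All 35556 probe sets had a value on every array, 0 columns were unmapped, and array medians lay between 7.49 and 7.59. The number of arrays (3 a group) limits the precision.

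Probe sets with 1 symbol (21789) were named through the platform annotation and checked by gene identifier against RefSeq (21698 found, 0 updated). The highest mean was kept per gene, and a gene was tested if above the array-wide median on at least 3 arrays. Groups were compared with lmFit and eBayes of limma 3.58.1 under R 4.3.3 (two-sided, Benjamini-Hochberg over 11424 genes, 10% FDR, the study's threshold). Genes, lists and the naming rule (all 28 genes, Pax6, and from each other list up to 4 called genes with the lowest adjusted p, else the 2 lowest) were chosen with earlier results of these data known.

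Groups share replicate numbers. Deviations from group means correlated at 0.574, 0.323 and 0.230 within numbers 1, 2 and 3 over all tested genes, all above 0.1. Across numbers they ran from -0.397 to 0.178, the latter for control replicate 3 with knockdown replicate 2. The number was used to pair arrays only for differences within numbers, the matched spread and the replicate block. Unless the block is named, p-values come from the fit without it. The pairing comes from the data, and the labels do not say what the number marks. The fit was tested on simulated data.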

Additional observations from a re-analysis of the deposited data

How the results depend on the processing

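There were 15 alternatives. The count of lower cholesterol genes was 3 with 24 tested, and 0 both without a low-value filter and with the variance filter, which tests only 11 of the genes; leaving out 1 array it ranged from 0 to 3. The count of higher ones was 1 with array weights and 1 with an intensity trend (Lss). Over all tested genes 319 rose and 443 fell, and with array weights 1404 rose and 996 fell. Both directions together came to 2042 genes with the replicate block, 245 when no gene was filtered, 389 with the 25th percentile filter, 127 with the variance filter, 1383 with a second quantile normalization, 2400 with array weights and 51 to 1285 leaving out 1 array. The variance filter moved the median log2 fold change of the synthesis genes to -0.158 and that of the regulation, export and storage genes to -0.081; leaving out 1 array the latter ranged from -0.102 to -0.041. The replicate block changed no call of the 24 tested genes but that of Nsdhl. Signs turned for genes near 0 that were past 10% FDR in no alternative. With array weights Idi1 was 0.013 and Insig2 0.073. With a second quantile normalization Msmo1 was -0.001 and Tm7sf2 -0.02. Leaving out 1 array, Abcg1 ranged from -0.049 to 0.046, Dhcr7 from -0.045 to 0.013, Idi1 from -0.144 to 0.059, Insig2 from -0.102 to 0.06, Msmo1 from -0.081 to 0.074, Scap from -0.05 to 0.033, Srebf2 from -0.088 to 0.044 and Tm7sf2 from -0.02 to 0.034. The causes were not tested.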
